A study of Mus musculus with 12 samples.

Results

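Semaphorins, plexins and neuropilins form one ligand and receptor family, and its messenger RNAs were followed here in cultured mouse fat-tissue stromal cells that lacked the microRNA miR-26 or were induced to make more of it. Members were chosen by gene name alone: class 3 to class 7 semaphorins, plexins of the A, B, C and D groups, the plexin domain proteins, and both neuropilins. The name rule found 32 of the 19262 genes listed for the knockout comparison and 31 of the 16785 listed for the induction comparison, and 31 genes were in both. The additional name in the first table was Plxna4os1, an antisense RNA. The whole series lists 19429 genes in either table.

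Semaphorins are secreted or membrane-bound guidance proteins, first known for steering axons. Class 3 semaphorins are secreted and mostly bind a neuropilin, which joins an A plexin that carries the signal, whereas the membrane-bound classes bind plexins directly. Plexins act through small GTPases on the cytoskeleton and on adhesion, and neuropilins also serve as co-receptors for VEGF. In fat tissue and other connective tissue the family is known for roles in vessel growth, innervation and cell migration.

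Messenger RNA was sequenced from 12 libraries of primary stromal vascular cells of white adipose tissue, in 4 groups of 3, from C57BL/6 mice aged 6 weeks. WT cells were wild type, and TKO cells, from triple knockouts, were miR-26b-/- as well as miR-26a-1-/- and miR-26a-2-/-. CTL and Dox cells all carried the M2rtTA transactivator and the eGFP.miR-26a transgene; Dox cells received doxycycline, given in the labels as 1 mg/ml, for 4 days, and CTL cells received none. The study's title and design text name the search for miR-26 targets in adipocyte progenitors as the purpose. No group analysed here received doxycycline without carrying the miR-26a transgene, so an effect of doxycycline and an effect of miR-26a cannot be told apart. Whether the replicates of a group came from different animals or different cultures is not in the labels, and the p-values therefore measure only the spread between these libraries. Mature miR-26 itself was not measured by these libraries.

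Values are the authors' scaled read counts, called signal here. Depth, as reads recovered from the signal, ran from 54978109 to 83461531 per library in WT and TKO and from 19301969 to 25785439 in CTL and Dox. Among 11 stromal progenitor markers, Pdgfra lay between 517 and 1082 in signal and Pdgfrb between 776 and 1326 over the 12 libraries. Of the same list Cd34 (12.8 to 39.5), Dpp4 (2.39 to 39.9) and Pi16 (2.16 to 11.2) were the lowest. Ly6a (48.2 to 347), Lum (56.8 to 419), Thy1 (358 to 789) and Dcn (600 to 2041) lay above them, and the collagens Col1a1 and Col3a1 were highest. Pecam1, an endothelial marker, lay between 0.990 and 23.7. TKO replicate 2 stood apart from the other 5 libraries of its table in macrophage markers, with Csf1r at 26.7 against 6.27 to 9.96 and Ptprc at 6.25 against 0.765 to 2.23. The summed signal of 13 macrophage markers ran from 38.9 to 72.0 in WT and from 52.0 to 317 in TKO, with its maximum in replicate 2. TKO replicates 1 and 2 stood apart in adipocyte markers, with Adipoq at 16.0 and 16.3 against 0.787 to 2.80 in the other 4 libraries of the table and Fabp4 at 83.5 and 80.7 against 25.5 to 27.1. In such bulk samples fewer cells of a type and less RNA per cell cannot be told apart.

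The microRNA that the comparisons change is printed first, since its seed (bases 2 to 8, in capitals) sets which messenger RNAs it can pair with. The mature forms, from RefSeq on GRCm38.p6, read 5′ to 3′ as follows.
mmu-miR-26a-5p: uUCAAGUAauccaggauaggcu
mmu-miR-26b-5p: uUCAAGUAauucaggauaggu
Both carry the same seed, so a single search of the 3′ UTRs serves both. The letters sought on the sense strand of the annotated 3′ UTR (GENCODE vM21, GRCm38, 1 transcript a gene) were TACTTGAA, the 8-base match, which contains both shorter ones, and outside it the 7-base matches ACTTGAA and TACTTGA.

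Of the 27 members tested in each comparison, 3 held the 8-base match (11.1%), against 5.09% of 11834 tested genes with a 3′ UTR. These were Sema6a, Plxna2 and Sema6d. The 7-base match ACTTGAA was in 4 members (14.8%, against 13.4%), namely Nrp2, Plxna2, Plxdc2 and Sema3e, and TACTTGA outside an 8-base match was in 0 members, against 7.23%. The windows below show the matches, in capitals, for Nrp2, Plxna2 and Sema6d, each on the plus strand in the last exon. The match in Sema6a, which also changed, lies in its last exon, exon 19 of 19, and its window is not printed here.
Nrp2, chr1:62816095-62816101, exon 16 of 16: ttctagtcaacACTTGAAaagcaaagggg
Plxna2, chr1:194813268-194813275, exon 32 of 32: acagtaagcaaTACTTGAAgagtgtaggtt
Sema6d, chr2:124665621-124665628, exon 18 of 18: gactgaacaaaTACTTGAAaatgggttcaa
A match of letters describes the transcript and shows neither binding nor a cause of any change.

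Receptors were the most abundant members. Per kilobase of transcript, Plxnb2, a receptor for class 4 semaphorins, had the highest signal in WT, at 55.0 ± 2.88 (SD, n = 3). Plxna1, an A plexin, followed at 42.2 ± 0.475, a gap larger than the spread of either. The neuropilin Nrp1 stood at 34.7 ± 3.69, Nrp2 at 27.5 ± 2.80 and Plxdc2, a membrane protein reported as a receptor for the secreted factor PEDF, at 26.2 ± 1.79, and Nrp2 and Plxdc2 differed by less than their SDs. The highest ligand was Sema3a, the classical repulsive ligand of Nrp1, at 15.1 ± 2.46 per kilobase. Plxnd1, the receptor of Sema3e, stood beside it at 14.4 ± 0.979, within the SD of Sema3a.

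In CTL the leading 5 came in the same order, Plxnb2 at 70.4 ± 8.39 signal per kilobase, Plxna1 at 44.2 ± 6.17, Nrp1 at 39.8 ± 4.49, Nrp2 at 21.9 ± 4.27 and Plxdc2 at 19.1 ± 2.53 (SD, n = 3). The gaps between Plxna1 and Nrp1 and between Nrp2 and Plxdc2 were within the larger of their SDs there. The 2 tables were normalised apart, so levels are not set across them. At the other end, Plxnb3, Sema4a, Sema4f and Sema5b did not reach a signal of 1 in 3 of the 6 libraries of either comparison and were not tested. Plxna4os1, which lies within the Plxna4 gene on the opposite strand, was also below that level, at 0.011 to 0.076 in signal. Its recovered reads were 1 to 6 per WT or TKO library, against 1510 to 4095 for Plxna4. The strand setting of the counting is not given in the sources used here, so whether reads of one gene were counted for the other cannot be told.

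**Figure D1:**
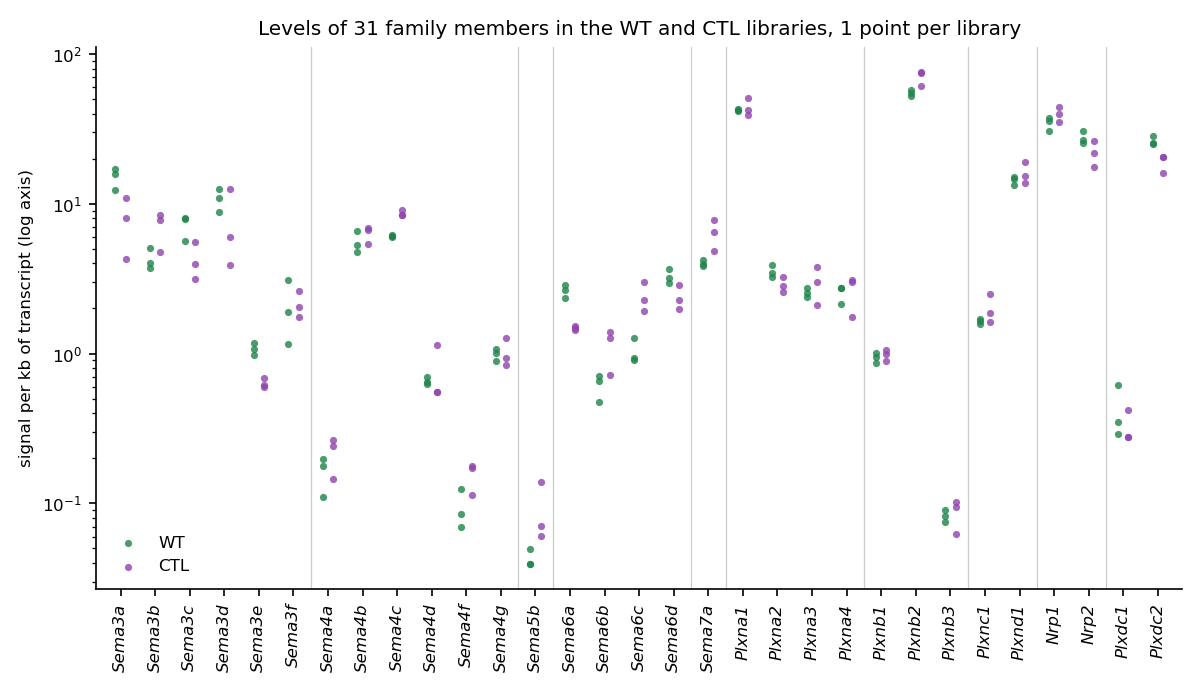
Signal per kilobase of transcript (log axis) of 31 members in the 3 WT libraries (green) and the 3 CTL libraries (purple), 1 point per library, with members grouped by class. Plxnb2, Plxna1, Nrp1, Nrp2 and Plxdc2 have the highest means in both groups, with Plxnd1 overlapping Nrp2 and Plxdc2 in CTL, and Plxnb3, Sema4a, Sema4f and Sema5b lie at the bottom; the 2 tables were normalised apart.

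The first comparison asks which family members changed when all miR-26 was absent. Ligands and receptors moved in both directions: 3 of the 27 members tested were higher in TKO (Plxnb2, Sema4c and Sema6c) and 5 were lower (Sema3d, Nrp2, Sema6a, Sema3a and Plxna1). The test was limma on log2(signal + 1), with Benjamini-Hochberg adjustment over all 12649 genes tested and a threshold of 0.05. The members called were 8 of 27 (29.6%), where 45.8% of all genes tested were called, with 23.2% higher and 22.7% lower. The share of members called was below that background, a difference that was not tested. The median log2 change was 0.0033 over the members and -0.00085 over all genes. The same 8 members were those whose WT and TKO libraries did not overlap, against 58.8% of all genes. Fold changes on this scale understate the change of low genes.

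Among the ligands, the largest fall in this fit was that of Sema3d, a secreted class 3 semaphorin. The 6 class 3 ligands tested had a median change of -0.14, with 4 below 0 and 2 above. Sema3d, a guidance ligand also known from heart and vessel development, had signals of 68.8, 55.6 and 78.6 in the WT libraries against 26.3, 46.8 and 29.1 in the TKO libraries. Every TKO library lay below every WT library, with TKO replicate 2 nearest to them. The log2 change of Sema3d was -1.0 ± 0.23 (SE, limma adjusted p = 0.012). Sema3a gave 73.3, 93.5 and 101.7 in the WT libraries, against TKO signals of 58.7, 49.4 and 67.2. Its groups again did not overlap, and its change was -0.60 ± 0.15 (adjusted p = 0.019).

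Neither fall of a class 3 ligand passed once the trend of each library with transcript length and GC content had been removed. Sema3d then stood at -0.66 (adjusted p = 0.11) and Sema3a at -0.31 (adjusted p = 0.14). Sema3a also missed the threshold without WT replicate 2 (adjusted p = 0.070) and without WT replicate 3 (adjusted p = 0.060). The other class 3 ligands did not pass. Sema3c was spread from 20.1 to 73.0 in TKO, wider than its 31.2 to 44.4 in WT, and passed, at -0.68, only when TKO replicate 1 was left out (adjusted p = 0.043). Sema3e, the ligand of Plxnd1, had signals of 6.76, 8.12 and 7.32 in the WT libraries against 4.86, 8.90 and 6.82 in the TKO libraries. Those ranges overlapped, and its log2 change was -0.13 ± 0.19.

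Sema3f, the repulsive ligand of Nrp2, gave 3.95, 6.47 and 10.6 in the WT libraries, against TKO signals of 7.43, 17.1 and 9.51. The highest value was that of TKO replicate 2 and the groups overlapped. The change of 0.64 ± 0.38 did not pass (adjusted p = 0.21) and was 0.32 without TKO replicate 2. Sema3b, which like Sema3f lies on chromosome 9, was at 12.8 to 17.2 in WT and 15.2 to 24.4 in TKO and did not pass either.

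Among the membrane-bound ligands, Sema4c, a ligand of Plxnb2, gave the tightest difference. It had signals of 23.4, 23.6 and 24.0 in the WT libraries against 31.6, 33.2 and 32.4 in the TKO libraries. Each group kept within a narrow range and the groups lay well apart. Its change was 0.44 ± 0.059 (adjusted p = 0.0017). Sema4b, Sema4d and Sema4g, the other class 4 ligands tested, changed by between -0.16 and 0.091 and did not pass. Sema7a, the GPI-anchored class 7 ligand that binds integrins and Plxnc1, was at 12.8 to 13.8 in WT and 12.6 to 14.2 in TKO.

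Class 6 split. Sema6a, a transmembrane ligand of Plxna2 and Plxna4 and the family's called gene with an 8-base seed match, was at 16.1, 19.6 and 18.3 in WT. In TKO it was at 8.97, 8.76 and 10.4, below every WT library. The change was -0.87 ± 0.10 (adjusted p = 0.0012), a fall in the cells without miR-26. Sema6c gave 3.64, 3.78 and 5.16 in the WT libraries, against TKO signals of 5.84, 7.89 and 5.86, higher without overlap and highest in TKO replicate 2. Its change of 0.54 ± 0.16 (adjusted p = 0.032) did not pass without WT replicate 1 (0.11), without WT replicate 2 (0.11) or without TKO replicate 2 (0.068). Sema6d, which holds the 8-base match, had signals of 23.8, 19.2 and 20.5 in the WT libraries against 23.3, 17.3 and 15.4 in the TKO libraries. Its groups overlapped and its change of -0.19 ± 0.16 did not pass (adjusted p = 0.37). Sema6b had its highest signal, 6.12, in TKO replicate 2, lay between 1.77 and 3.801 in the other 5 libraries, and did not pass (0.60 ± 0.26, adjusted p = 0.099). It passed in DESeq2 (adjusted p = 0.044) and without TKO replicate 1 (0.84, adjusted p = 0.023).

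**Figure D2:**
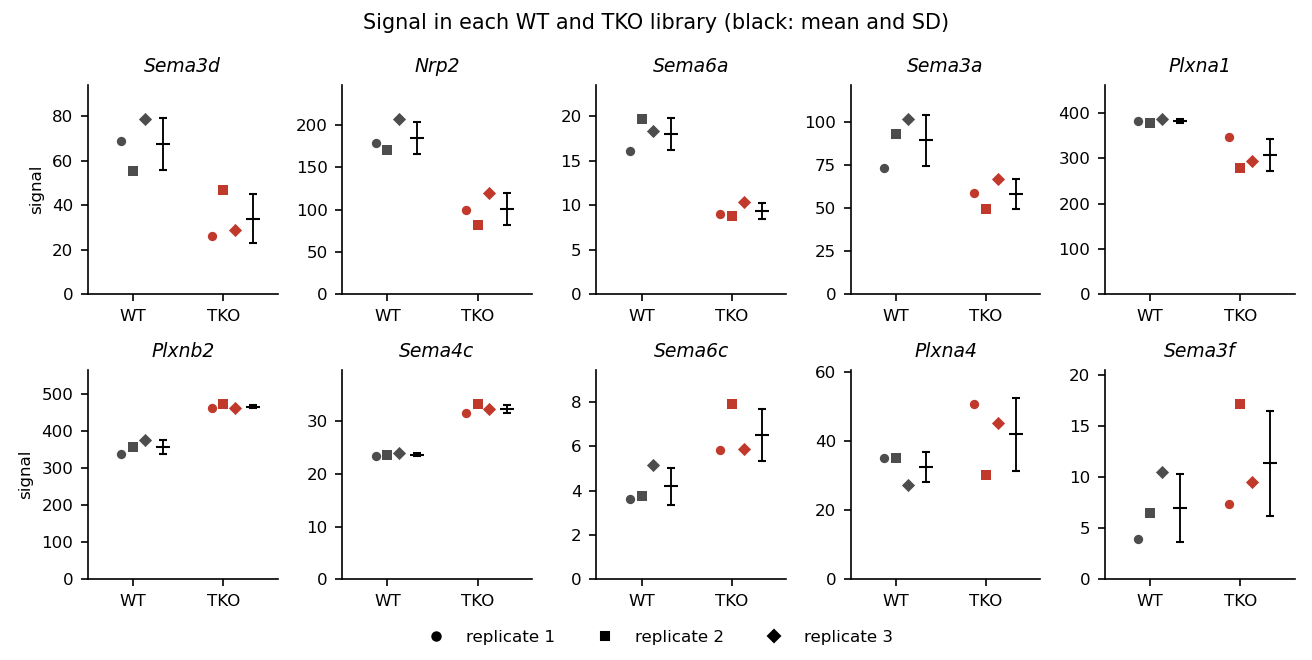
Signal in each WT (grey) and TKO (red) library for the 8 members that passed and for Plxna4 and Sema3f, with replicates by marker shape and the mean and SD in black; each axis starts at 0. The groups do not overlap for Sema3d, Nrp2, Sema6a, Sema3a, Plxna1, Plxnb2, Sema4c and Sema6c, and overlap for Plxna4 and Sema3f.

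The neuropilins parted. Nrp2, the co-receptor of Sema3f and of VEGF-C, gave 178, 170 and 206 in the WT libraries, against TKO signals of 99.97, 82.2 and 119. The highest TKO library lay well below the lowest WT library, and the log2 change was -0.88 ± 0.14 (adjusted p = 0.0035). Nrp1, the co-receptor of Sema3a and of VEGF-A, had signals of 135, 129 and 110 in the WT libraries against 167, 112 and 171 in the TKO libraries. TKO replicates 1 and 3 were above all WT libraries and replicate 2 was within their range. Nrp1 did not pass (0.25 ± 0.18, adjusted p = 0.28), and passed without TKO replicate 2, at 0.44 (adjusted p = 0.014). The ratio of Nrp2 to Nrp1 signal was 1.32, 1.32 and 1.88 in the WT libraries, against 0.597, 0.732 and 0.696 in the TKO libraries. Within each library the ratio does not depend on the scaling between libraries, and the groups did not overlap.

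Among the plexins, Plxnb2 rose from WT signals of 338, 358 and 375 to TKO signals of 464, 473 and 464. All 3 TKO libraries lay above all 3 WT libraries, and the change was 0.39 ± 0.065 (adjusted p = 0.0039). With Sema4c, a ligand and its receptor were therefore both among the 3 members called higher. The share of the family's summed signal per kilobase held by B plexins was 19.3%, 20.6% and 20.7% in the WT libraries against 24.8%, 29.3% and 27.5% in the TKO libraries, without overlap. Nearly all B plexin signal was Plxnb2, at 55.0 per kilobase in WT against 0.941 for Plxnb1, and the family sum includes the members called lower. The share therefore restates those calls and is no separate result for the class. Plxnb1, the receptor of Sema4d, was at 7.47 to 8.75 in WT and 8.28 to 13.6 in TKO and did not pass.

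Plxna1 gave 382, 377 and 385 in the WT libraries, against TKO signals of 348, 279 and 295. The TKO libraries were all lower, and the change was small, at -0.32 ± 0.092 (adjusted p = 0.029). Plxna1 missed the threshold with 5 of the 6 libraries left out in turn, with adjusted p from 0.054 to 0.085, the exception being TKO replicate 1. The call was also lost with the trend on length and GC content removed (-0.25, adjusted p = 0.051).

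Plxna4, a receptor of class 3 and class 6 semaphorins, had signals of 35.2, 35.1 and 27.4 in the WT libraries against 50.7, 30.2 and 45.4 in the TKO libraries. Replicates 1 and 3 of TKO were above all WT libraries, and replicate 2 lay within the WT range. The change of 0.34 ± 0.20 did not pass (adjusted p = 0.21). It passed without TKO replicate 2 (0.55, adjusted p = 0.016) and with the trend on length and GC content removed (0.58, adjusted p = 0.020). Plxna2, which holds an 8-base and a 7-base seed match, gave 43.0, 38.0 and 35.7 in the WT libraries, against TKO signals of 59.3, 22.9 and 40.6. Its TKO libraries straddled the WT range, with a change of -0.022 ± 0.31. TKO replicate 2, the library high in macrophage markers, was the lowest or highest of its group for every member called. In a group of 3 libraries only the middle one is not an extreme, and the share over all genes was not counted. The position of TKO replicate 2 is therefore not shown to be particular to the members called. It was the lowest for Nrp2, Plxna1, Sema3a and Sema6a and the highest for Sema3d, Plxnb2, Sema4c and Sema6c. For Sema6a, Plxnb2 and Sema4c another TKO library lay close to it. Among members not called it was the lowest for Nrp1, Plxna2 and Plxna4 and the highest for Sema3f and Sema6b, among others. The part of those markers in the results was not tested.

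Plxdc2 had signals of 196, 176 and 174 in the WT libraries against 182, 128 and 112 in the TKO libraries. Replicate 1 of TKO lay within the WT range and the others below it. Its change of -0.40 ± 0.17 did not pass (adjusted p = 0.10), and passed without TKO replicate 1, at -0.60 (adjusted p = 0.0054). The remaining plexins Plxna3, Plxnc1 and Plxnd1 changed by 0.18, 0.048 and 0.021 and did not pass. Plxdc1, the other plexin domain protein, was low, at 0.712 to 2.27.

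**Figure D3:**
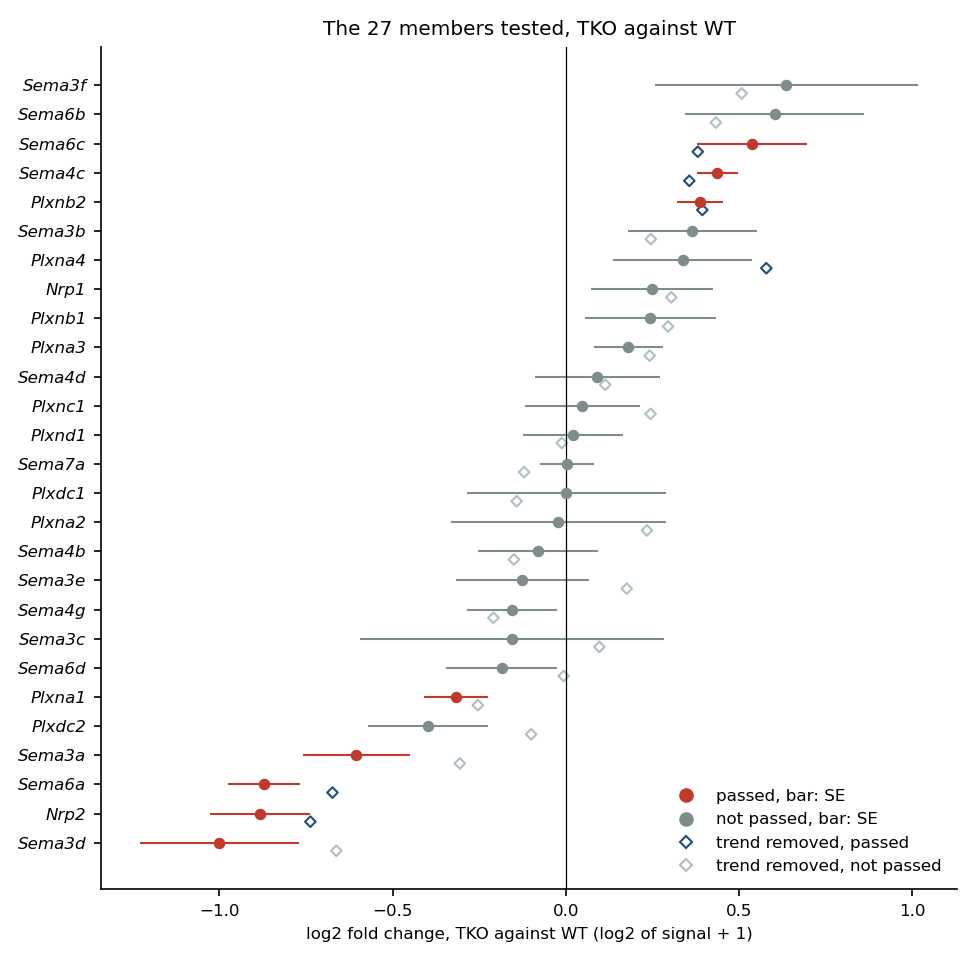
Log2 fold change of the 27 members tested, TKO against WT, as dots with SE bars (red: passed, grey: not passed), and with the trend on transcript length and GC content removed as diamonds (blue: passed, pale: not passed). Sema3d, Sema3a and Plxna1 lost their call with the trend removed, Plxna4 gained one, and Plxnb2, Sema4c, Sema6c, Sema6a and Nrp2 passed in both.

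The changes in TKO ran with base composition. Spearman's rank correlation between log2 change and transcript GC content was 0.71 across the 27 members and 0.31 across the 12635 genes with an annotated transcript, and that with length was -0.32 in both. These are descriptions across genes of the same 6 libraries. The members were longer than other genes, with a median of 6307 against 3154 bases, and richer in GC, at 55.0% against 49.9%. Sema3a, Sema3c, Sema3d and Sema3e share a low GC content, from 39.2% to 42.7%, and lie on chromosome 5 between 12383385 and 17730268. With the trend removed, 6 of 27 members passed (22.2%), against 46.3% of all genes: Plxnb2, Sema4c, Sema6c and Plxna4 higher, Sema6a and Nrp2 lower. The calls were then 4 higher and 2 lower in place of 3 and 5.

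Scaling by library size alone moved the median log2 change of all genes to 0.11 and the share of higher calls from 50.6% to 66.7%. Among the members it gave 4 higher and 4 lower, with Plxna3 added at 0.30 (adjusted p = 0.041) and Plxna1 lost at -0.19 (adjusted p = 0.078). Sema6a, Nrp2, Sema4c and Plxnb2 passed under all 18 alternatives tried. Of 32 members, 8 in the authors' deposited table had a false discovery rate under 0.05. It lists Plxnb3 (log2 1.16, rate 0.028) and Sema4f (log2 1.23, rate 0.035), both below the filter used here, and does not call Plxna1 (rate 0.10) or Sema6c (rate 0.12). Without the filter limma too called Sema4f, at 0.45 (adjusted p = 0.026), and Plxnb3, at 0.48 (adjusted p = 0.023), and no longer called Sema6c (adjusted p = 0.055).

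**Figure D4:**
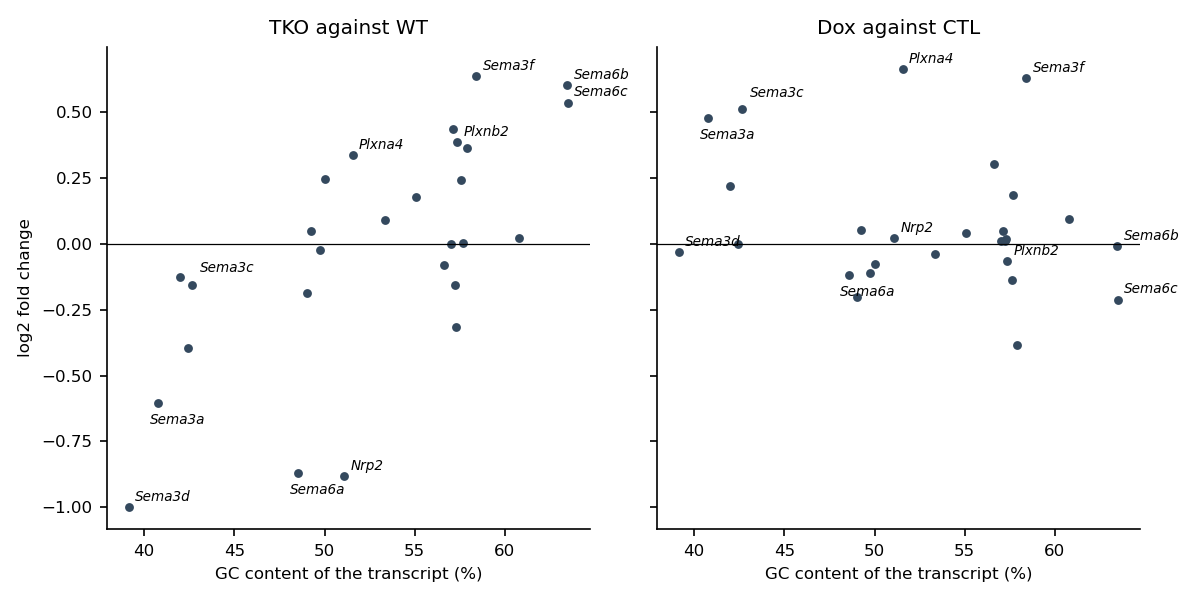
Log2 fold change of the 27 members tested against the GC content of the transcript in percent, TKO against WT on the left and Dox against CTL on the right, 1 point per gene with 10 genes named. On the left Sema3d and Sema3a lie low at low GC content and Sema6b and Sema6c high at high GC content (rank correlation 0.71); on the right the rank correlation is -0.14.

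The second comparison asks which members moved when miR-26a was induced. Without regard to replicate number, limma called 0 of 27 members and 0% of all 12634 genes. An unadjusted p under 0.05 was found for 2 members (7.41%) and for 748 of all genes. On recovered reads edgeR and DESeq2 also called 0 members. Of all 12634 genes edgeR called 0, while DESeq2 called 99 and gave 2450 no adjusted p. Same-numbered CTL and Dox libraries deviated from their group means together, so the fit with the replicate number as a block is given as well. The deposited columns of Dox replicates 2 and 3 carry the same library suffix, so the numbering that the paired values rest on comes from the replicate number in the column names alone. In that fit 2 of 27 members passed (7.41%), both higher in Dox: Plxna4 and Sema3f. Of all genes 2.10% passed in either direction and 0.562% as higher. An unadjusted p under 0.05 was found for 6 members (22.2%) and for 2187 of all 12634 genes. The median log2 change was 0.013 over the members and 0.011 over all genes. Of 31 members, 0 in the authors' deposited table of this comparison had a false discovery rate under 0.05. That table therefore called neither Plxna4 (log2 0.66 there) nor Sema3f (log2 0.76 there).

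Plxna4 was at 39.9, 22.6 and 38.8 in CTL and 60.8, 41.1 and 57.9 in Dox. Replicate 2 was the lowest in each group, and every Dox library exceeded every CTL library. The log2 rise was 0.60, 0.83 and 0.57 in pairs 1, 2 and 3. The paired estimate was 0.67 ± 0.087 (SE, limma adjusted p = 0.012, and 0.81 without the block). Plxna4 passed with each pair left out in turn, at an adjusted p of at most 0.0073, and with the block in edgeR (adjusted p = 0.019) and DESeq2 (adjusted p = 1.1e-05). With a pair left out, here and below, only 2 pairs remain. The limma p-values then rest mostly on spread borrowed from other genes and are weak evidence. Its 3′ UTR, of 6221 bases, held none of the seed matches sought.

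Sema3f was at 5.92, 6.91 and 8.82 in CTL and 9.16, 9.27 and 18.1 in Dox. Replicate 3 of Dox was far the highest, and the groups did not overlap. The pairs rose by 0.55, 0.38 and 0.96, and the paired estimate was 0.63 ± 0.13 (adjusted p = 0.045, and 0.84 without the block). The call was lost without replicate 1 (0.67, adjusted p = 0.061) and with the block in edgeR (adjusted p = 0.056). Sema3b, also on chromosome 9, was at 26.7, 16.2 and 28.5 in CTL and 19.7, 17.3 and 15.7 in Dox. It fell in pairs 1 and 3 and not in pair 2, and its change of -0.38 ± 0.15 did not pass (adjusted p = 0.23). Without pair 2 it was -0.62 and passed (adjusted p = 0.00073), with the limit given above for fits on 2 pairs. The ratio of Sema3f to Sema3b signal went from 0.222, 0.428 and 0.309 in the CTL libraries to 0.465, 0.536 and 1.15 in the Dox libraries, without overlap.

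**Figure D5:**
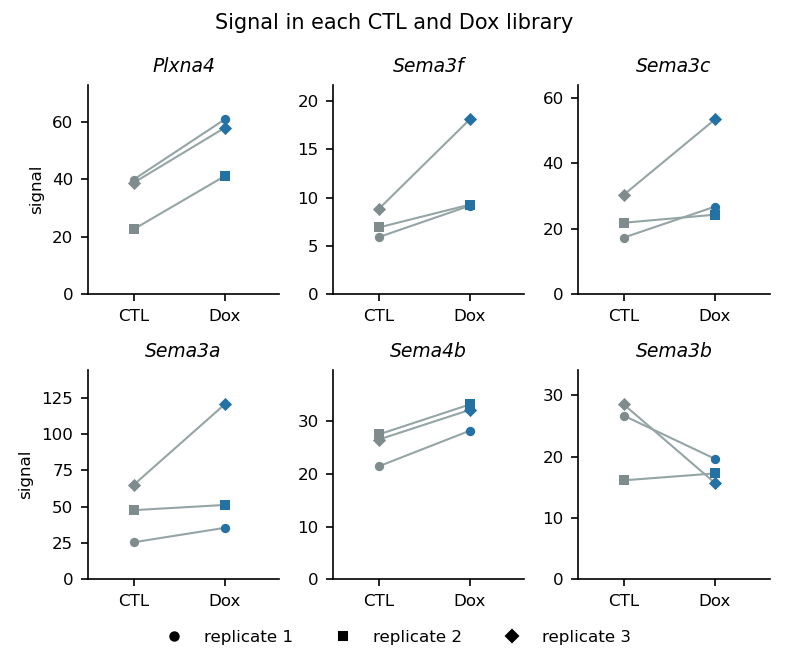
Signal in each CTL (grey) and Dox (blue) library for Plxna4, Sema3f, Sema3c, Sema3a, Sema4b and Sema3b, with lines joining libraries of the same replicate number; each axis starts at 0. Plxna4, Sema3f and Sema4b are higher in every Dox library than in any CTL library, while Sema3a and Sema3c rise within pairs but overlap between groups.

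Other class 3 and class 4 ligands moved within pairs without passing in limma with the block. Sema3c was at 17.3, 21.9 and 30.4 in CTL and 26.8, 24.3 and 53.4 in Dox (0.51 ± 0.12, paired adjusted p = 0.067). Sema3a was at 25.5, 47.6 and 64.9 in CTL and 35.4, 51.2 and 120.3 in Dox (0.48 ± 0.13, paired adjusted p = 0.091). In both, replicate 3 of Dox was the highest library and the groups overlapped. DESeq2 with the block called both, at adjusted p of 0.027 for Sema3c and 0.032 for Sema3a. In limma both passed without pair 2, at 0.69 (adjusted p = 5.5e-05) and 0.67 (adjusted p = 6.2e-05), and Sema3c also without pair 3 (0.37, adjusted p = 0.039). Those fits rest on 2 pairs, with the limit given for Plxna4. Sema4b was at 21.4, 27.4 and 26.5 in CTL and 28.1, 33.1 and 32.1 in Dox, without overlap (0.30 ± 0.085, paired adjusted p = 0.11, and 0.035 without pair 2). With the trend on length and GC content also removed, Sema3c, Sema3a and Sema4b passed beside Plxna4 and Sema3f, 5 of 27 members (18.5%) against 6.93% of all genes.

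Groups that did not overlap were found for 3 of 27 members (11.1%), against 12.2% of all genes. All 3 pairs moved one way for 10 members (37.0%, 6 higher and 4 lower), against 39.5%. Both shares are near the background. Sema3d, lower in TKO, was at 38.1, 79.2 and 24.7 in CTL and 32.9, 64.0 and 33.4 in Dox. Pairs differed more than treatments for it, and its change was -0.031 ± 0.13. The class 6 ligands tested, 4 in all, had changes from -0.21 to -0.0070, and 0 of them passed by limma, edgeR or DESeq2 with the block or had an unadjusted p under 0.05.

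The abundant receptors showed no change that passed. Plxnb2 was at 395, 482 and 495 in CTL and 358, 533 and 432 in Dox, and Plxna1 at 354, 382 and 462 in CTL and 332, 465 and 421 in Dox. Pair 2 went up and pairs 1 and 3 down for each of them. Nrp1 was at 142, 160 and 127 in CTL and 134, 147 and 125 in Dox, a change of -0.076 ± 0.070. Nrp2 was at 119, 146 and 177 in CTL and 118, 149 and 184 in Dox, a change of 0.023 ± 0.070. Plxdc2 was at 112, 143 and 143 in CTL and 109, 135 and 155 in Dox. Log2 differences within pairs reached 0.28 for Plxna1 (pair 2) and -0.20 for Plxnb2 (pair 3), and were smaller for Nrp1, Nrp2 and Plxdc2. None of the 5 passed by limma with the block.

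The members with seed matches did not pass on induction either. Sema6a was at 10.5, 10.1 and 9.81 in CTL and 10.01, 10.1 and 7.85 in Dox, a change of -0.12 ± 0.11. Plxna2 was at 28.6, 31.4 and 35.8 in CTL and 27.9, 32.0 and 28.5 in Dox, a change of -0.11 ± 0.095. Sema6d was at 14.7, 18.5 and 12.9 in CTL and 14.8, 15.4 and 9.82 in Dox, a change of -0.20 ± 0.11. The groups overlapped for these 3 genes, which hold the 8-base match. Sema3e, with 7-base matches only, was at 4.26, 4.72 and 4.10 in CTL and 4.58, 4.56 and 6.80 in Dox.

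Set side by side, Plxna4 changed by 0.34 in TKO against WT, where it did not pass, and by 0.67 in Dox against CTL. Sema3f changed by 0.64 in the first, where it did not pass, and by 0.63 in the second. Of the 8 members called in TKO, 0 passed on induction by limma or edgeR with the block alone. Sema3a alone of them had an unadjusted p under 0.05 there and passed in DESeq2 with the block (adjusted p = 0.032), in the direction opposite to that in TKO. Sema3a also passed in limma with the block and the length and GC trend removed (adjusted p = 0.015). Whether the changes of a member differ between the comparisons was not tested. Sema4c was 0.44 higher in TKO and changed by 0.048 ± 0.085 in Dox.

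Genes that work with the family were followed through lists of co-receptors, VEGF partners, proteases and downstream effectors. The list results, here and below, come from fits that kept the trend with length and GC content, and were not repeated with it removed. In TKO, of 23 kinases and cytoskeletal effectors 4 rose and 10 fell, where 23.2% of all genes tested were called higher and 22.7% lower. The kinases Rock1 and Rock2, which act on the actin cytoskeleton, were among the latter, Rock1 at -0.81 (adjusted p = 0.00061) and Rock2 at -0.84 (adjusted p = 0.0023), as was Gsk3a, another kinase, at -0.70 (adjusted p = 0.00056). The median change was -0.28 over the list, against -0.00085 over all genes.

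The VEGF ligands and receptors that share neuropilins counted 0 higher and 3 lower of 8 in TKO, a share called that is below the 45.8% of all genes. Flt1, a VEGF receptor, fell by 0.64, Vegfb by 0.69 and Vegfa by 0.34, with adjusted p of 0.00092, 0.0096 and 0.0043. Co-receptors and partners counted 4 higher and 4 lower of 15, near the background of 23.2% and 22.7%. Ptk7, a pseudokinase reported to associate with plexins, was 0.84 higher (adjusted p = 0.00030), and Chl1, an adhesion molecule that joins Nrp1 in Sema3a signalling, was 1.96 higher (adjusted p = 0.0048). Serpinf1, which encodes PEDF, gave 1764, 1734 and 1713 in the WT libraries, against TKO signals of 1350, 1079 and 1040, a change of -0.60 (adjusted p = 0.0065). Of 6 proteases 2 rose, the proprotein convertases Pcsk5 (0.89, adjusted p = 0.0056) and Pcsk7 (0.48, adjusted p = 0.0013), and the sheddase Adam10 fell by 0.45 (adjusted p = 0.028), 3 calls of 6 beside 45.8% of all genes. Of 4 collapsin response mediator proteins, which act downstream of Sema3a, 0 passed by limma, edgeR or DESeq2, and 0 had an unadjusted p under 0.05.

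On induction, in the fit with the replicate block, 0 of 23 kinases and effectors, 0 of 16 co-receptors and 0 of 4 collapsin response mediator proteins passed by limma. Of these, 5, 2 and 2 had an unadjusted p under 0.05, beside 2187 of all 12634 genes. With the block, edgeR called 0 in each list and DESeq2 called 1 kinase, Pak3. Of the 8 VEGF genes Kdr, the main signalling receptor of VEGF-A, rose by 0.51 (adjusted p = 0.023), and Vegfd fell by 0.35 (adjusted p = 0.0497), a call that edgeR with the block did not make. Adam17, a sheddase that cleaves semaphorins and neuropilin-1, was at 107, 124 and 102 in CTL and 63.4, 73.8 and 58.0 in Dox. All Dox libraries were lower, and the fall of 0.76 passed (adjusted p = 0.0036). Adam10 was at 155, 167 and 188 in CTL and 122, 117 and 131 in Dox, a fall of 0.46 (adjusted p = 0.023).

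Markers of cells present in such cultures moved as follows beside these results. In TKO 1 of 11 stromal markers rose, Col3a1 by 0.79, and 2 fell, Thy1 by 0.86 and Pdgfrb by 0.47, while the list's summed signal went from between 21018 and 22268 in WT to between 27186 and 28075. Most of that gain was Col3a1 itself, at 7651, 7435 and 7302 in the WT libraries against 13850, 12848 and 12141 in the TKO libraries. Of 7 adipocyte markers, whose median change was 1.12, Cebpa rose by 1.63; edgeR also called Fabp4, and DESeq2 called Fabp4, Adipoq and Plin1 as well. Of 7 mural markers Kcnj8 rose by 0.63, and edgeR and DESeq2 also called Mcam and Notch3. Of the other lists 0 of 7 endothelial, 0 of 11 macrophage and 0 of 5 Schwann and neuronal markers passed by limma or edgeR or had an unadjusted p under 0.05. DESeq2 called 1 of these macrophage markers, Tyrobp. The summed endothelial signal was 80.1 to 104 in WT and 58.9 to 135 in TKO. On induction 1 of 9 endothelial markers, Kdr, passed as higher, and 3 of the 9 had an unadjusted p under 0.05. The median change of that list was 0.20, against 0.011 over all genes, and its sum was 65.2 to 115 in CTL and 77.8 to 151 in Dox. Pecam1 differed between pairs far more than within them, at 15.3, 6.35 and 0.990 in CTL and 23.7, 6.99 and 1.05 in Dox, and was higher in Dox in each pair. Ngfr, of the Schwann and neuronal list, rose by 0.41, Lpl, of the adipocyte list, fell by 0.48, and Ly6a, of the stromal list, fell by 0.60. Of these 3, edgeR with the block called Lpl only. Of 11 macrophage and 7 mural markers 0 passed by limma, edgeR or DESeq2, with 5 and 3 at an unadjusted p under 0.05. In the same limma fit 2187 of all 12634 genes had an unadjusted p under 0.05. The part of these marker genes in the changes of Plxna4, Sema3f, Nrp2 or the other members was not tested.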

How the data were processed

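Libraries were made with a stranded mRNA kit and sequenced as 75-base single reads, per the labels' protocols. TopHat2 2.0.12, featureCounts 1.4.6, edgeR 3.8.6 and StringTie 1.2.2 are listed with GRCm38 (mm10) per the submitters' processing notes, without roles; the strand setting is not given in the sources used here. The authors deposited, per library, a scaled read count per gene (signal). The log2 fold changes and p-values the authors deposited are used only in sentences naming that table, and the score deposited by the authors, a test statistic, was not used. Dividing each library by its smallest step returned reads: 100% of values gave whole reads within 0.1, and edgeR 4.0.16 and DESeq2 1.42.0 were run on these as alternatives.

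Genes that reached a signal of 1 in 3 or more of the 6 libraries were tested with limma 3.58.1 (R 4.3.3, trend on mean level) on log2(signal + 1), each comparison in its own table, with Benjamini-Hochberg adjustment over all genes tested and a threshold of 0.05. The fits were tested on simulated data. Values of every library were given for members past the threshold, the 5 with the highest mean signal, Plxna4, Sema3f and members with a seed match; other members are given where a comparison needs them. Up to 3 genes per list with the smallest p were named. The result of 1 list is not reported here. Other marker genes, Pak3 and Tyrobp, and the Sema3f to Sema3b and Nrp2 to Nrp1 ratios were chosen after their values were seen. The members, the 12 lists (137 genes) and the tests were chosen with earlier results of these data known. Length, GC content and 3′ UTR came from 1 GENCODE vM21 transcript a gene; all members matched. The trend was fitted per library across all genes.

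Deviations from the group means correlated at 0.86, 0.58 and 0.74 between CTL and Dox libraries of one number, and at -0.64 to -0.20 between different numbers, so replicate numbers were taken to pair them; the pairing rests on this check and not on a statement in the labels. Python 3.11.15 (pandas 2.3.3, scipy 1.17.1, numpy 2.4.6, matplotlib 3.10.9) made the tables and figures.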

Additional observations from a re-analysis of the deposited data

How the results depend on the processing

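Over 18 alternatives, 444 of 479 values of the 27 members in TKO against WT kept their direction or stayed uncalled, 21 lost and 14 gained a call, and 0 called values changed sign; 35 uncalled values of 9 members did. The 8 members called ranged from 5 to 11 with 1 library left out, those higher from 2 to 5 and those lower from 3 to 7. The lower calls were 2 with the length and GC trend removed and 3 with the replicate block added to that. WT and TKO numbers did not pair the libraries (deviation correlations 0.45, -0.13 and -0.29). With the replicate block 8 members passed, 2 higher and 6 lower, with Sema6c lost (adjusted p = 0.057) and Plxdc2 gained (0.048); of the WT libraries only replicate 1 correlated best with its own number. In Dox against CTL, of 556 values over 21 alternatives 534 kept their call and 22 gained one, and 54 uncalled values of 15 members changed sign. The replicate block gave 2 calls in place of 0, 5 with the trend removed as well, 1 in edgeR and 4 in DESeq2, all higher. With libraries or pairs left out the calls ranged from 0 to 6, with 0 to 5 higher and 0 to 1 lower. The block with edgeR and DESeq2 was added after seeing the data. Why these counts move was not tested. Where a library is left out, 2 libraries of that group set its spread together with the other group. Where a pair is left out, 2 pairs remain, and the p-values rest mostly on spread borrowed from other genes. Depth in CTL and Dox was lower than in WT and TKO, which limits the low members such as Plxdc1 and Sema4d most.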
